A study of Mus musculus with 8 samples.

Results

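The genes described here encode 9 liver-enriched transcription factors: the nuclear receptor gene Hnf4a, the forkhead genes Foxa1, Foxa2 and Foxa3, the C/EBP genes Cebpa, Cebpb and Cebpd, the cut homeobox gene Onecut1 and the prospero homeobox gene Prox1. They were chosen by symbol, as all probe sets that the platform annotation assigns to any of them, which gave 17 of the 45036 probe sets with a value on every array. Of these 17, 16 passed the filter on dim signals (at least 2 of 8 arrays above 73.5 units, the pooled median of all signals), and all 16 lay above that level on all 8 arrays. The remaining probe set, 1456605_at of Cebpd, was between 41.8 and 81.4 units and was not tested.

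Liver-enriched transcription factors bind together at the promoters and enhancers of hepatocyte genes and hold one another's expression in place. FOXA proteins can bind sites in closed chromatin and open the liver program in the embryo, HNF4A is a nuclear receptor required for a large share of hepatocyte-specific transcription, and C/EBP-alpha maintains metabolic genes and restrains division of hepatocytes. C/EBP-beta and C/EBP-delta are induced in the acute phase response, ONECUT1 (also called HNF-6) acts in liver and bile duct development, and PROX1 is needed for hepatoblast migration and binds HNF4A and related receptors as a corepressor.

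RNA came from v-erbA-transfected AML12 cells and from AML12 control cells, a line of cultured mouse hepatocytes derived from a mouse that carried a transforming growth factor alpha transgene. The v-erbA oncogene comes from an avian retrovirus and encodes an altered thyroid hormone receptor known to act as a repressor. Each line was given 1 µM retinoic acid (RA) or left untreated and was sampled at 3 h and at 24 h, so that 8 combinations were covered by 8 arrays, 1 array each. The vector, the promoter driving v-erbA and the number of clones in the transfected line were not stated in the labels, so v-erbA cannot be told apart from transfection or clone. Titles set the times here, although the description gives 3 h for 3 of the 4 samples whose title gives 24 h. The stated aim was to find genes whose regulation by RA changes in the presence of v-erbA.

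The line carried hepatocyte transcripts. Of 6 hepatocyte markers measured, 5 lay above the pooled median on all 8 arrays, and Alb and Ttr averaged 9703 ± 498 and 10738 ± 160 units with v-erbA and 10224 ± 557 and 10801.2 ± 56.5 units in AML12 (SD, n = 4 arrays each), close to the highest signal in the table, 12275 units. Whether such signals were near saturation was not tested. Of the 6, 3 were lower with v-erbA: Apoa1, Apob and Ahsg (limma adjusted p = 3.97e-05, 0.0143 and 0.00798). None was higher, and Alb, Ttr and Fgb did not pass. The 6 hepatocyte markers summed to 21813 to 24532 units with v-erbA and 25616 to 32527 units in AML12. Of 5 biliary and progenitor markers, 5 lay above the median on all arrays, with summed signals of 9465 to 10029.6 units with v-erbA and 11585 to 13004 units in AML12. Krt19 and Cd24a were lower with v-erbA, Krt7 higher, and Sox9 and Epcam did not pass. The share of these 5 that passed was 60.0%, against 53.4% of all genes. The 6 macrophage markers summed to 2213 to 3034 units with v-erbA and 3409 to 5520.5 units in AML12, the 7 mesenchymal markers to 395 to 505 and 393 to 454 units, and the 5 endothelial markers to 112 to 278 and 174 to 255 units. Most of the macrophage sum was Cd14, which averaged 2167 ± 396 units with v-erbA and 4129 ± 927 units in AML12 (SD, n = 4 arrays each). Of the other macrophage markers, Adgre1, Csf1r and Marco did not pass, and Cd68 and Ptprc, below the pooled median on every array, were higher with v-erbA in 4 of 4 pairs (55.4 and 51.4 units on average, against 23.7 and 18.7 units in AML12). None of these markers was at 0 on all arrays. Their part in the results below was not tested. Array medians lay between 71.2 and 76.1 units.

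The mouse genes lie on chromosomes 2 (Hnf4a, 163506811 to 163572907; Foxa2, 148042877 to 148046969; Cebpb, 167688915 to 167690432), 7 (Cebpa, 35119293 to 35121928; Foxa3, 19013283 to 19023539), 12 (Foxa1, 57540628 to 57548029), 16 (Cebpd, 15887286 to 15889545), 9 (Onecut1, 74861921 to 74889648) and 1 (Prox1, 190118035 to 190170827) of GRCm38.p6. RefSeq promoter windows of the same build, from 250 bases before to 50 bases after a transcript start, were matched for 8 of the 9 genes, 12 windows in all. Of these, 5 windows are printed here, from the genes with the lowest limma adjusted p between the lines. Hnf4a and Cebpa were lower with v-erbA, and Foxa1 and Prox1 were higher. By size of change Foxa3 (0.59), which is not printed, came before Foxa1 (0.38). Hnf4a has 2 of the printed windows. The gene is known to use an upstream start in the embryo and pancreas and a downstream start as its main start in adult liver. Prox1 also has 2 windows, of which 1 is printed. Its other window, at 190169466 to 190169765, holds none of the motifs marked below. Capitals mark matches, on either strand, to AGGTCA or GGGTCA, known as half-sites of nuclear receptors such as RA and thyroid hormone receptors. They also mark TGTTTAC (forkhead factors), TTGCNNCAA, CCAAT and TATAAA.
Hnf4a, upstream start, chr2:163506607-163506906, plus strand: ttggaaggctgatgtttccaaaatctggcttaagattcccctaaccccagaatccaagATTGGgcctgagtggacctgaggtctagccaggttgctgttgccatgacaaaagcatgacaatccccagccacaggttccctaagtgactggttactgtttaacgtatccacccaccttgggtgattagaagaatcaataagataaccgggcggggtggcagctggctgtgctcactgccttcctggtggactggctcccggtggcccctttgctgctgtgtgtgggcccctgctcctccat
Hnf4a, downstream start, chr2:163546905-163547204, plus strand: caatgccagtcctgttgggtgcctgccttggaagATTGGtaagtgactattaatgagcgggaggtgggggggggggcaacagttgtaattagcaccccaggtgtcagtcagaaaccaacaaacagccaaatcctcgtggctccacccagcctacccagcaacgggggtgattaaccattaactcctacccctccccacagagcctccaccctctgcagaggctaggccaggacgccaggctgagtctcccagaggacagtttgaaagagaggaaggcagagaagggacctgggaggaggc
Cebpa, chr7:35119043-35119342, plus strand: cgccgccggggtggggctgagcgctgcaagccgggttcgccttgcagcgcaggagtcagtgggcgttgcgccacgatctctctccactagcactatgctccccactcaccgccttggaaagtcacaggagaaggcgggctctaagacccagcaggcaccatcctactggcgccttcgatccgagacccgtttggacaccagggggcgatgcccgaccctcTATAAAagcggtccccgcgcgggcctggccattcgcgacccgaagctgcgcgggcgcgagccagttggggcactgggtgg
Foxa1, chr12:57546062-57546361, minus strand: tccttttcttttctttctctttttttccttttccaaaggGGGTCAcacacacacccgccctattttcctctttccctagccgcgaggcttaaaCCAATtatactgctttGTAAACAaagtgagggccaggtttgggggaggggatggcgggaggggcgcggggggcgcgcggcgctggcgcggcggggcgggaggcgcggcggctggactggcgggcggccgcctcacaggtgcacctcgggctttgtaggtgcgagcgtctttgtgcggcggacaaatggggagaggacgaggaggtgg
Prox1, chr1:190170778-190171077, minus strand: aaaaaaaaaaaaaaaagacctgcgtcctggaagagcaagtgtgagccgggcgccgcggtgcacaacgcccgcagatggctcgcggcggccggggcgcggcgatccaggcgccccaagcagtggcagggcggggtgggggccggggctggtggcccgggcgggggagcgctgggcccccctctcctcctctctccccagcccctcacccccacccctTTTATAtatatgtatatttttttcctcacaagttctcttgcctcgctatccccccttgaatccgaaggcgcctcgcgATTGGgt

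The half-site AGGTCA was found in 0 of the 12 windows, against 16.3% of 32851 promoter windows of all genes, and GGGTCA in 2 of 12 (Foxa1 and Cebpb), against 13.7%. The forkhead motif was found in 1 window, that of Foxa1 itself, against 3.65% of all windows, and TTGCNNCAA in 0, against 2.08%. CCAAT was present in 6 of 12 windows, against 37.4%, and TATAAA in 5 of 12, against 13.6%. In the Cebpa window TATAAA starts 30 bases before the transcript start. These are matches of letters in short windows and describe no binding, and the arrays do not separate the 2 starts of Hnf4a.

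The largest difference between the lines was that of Cebpa. Probe set 1418982_at had 315 and 313 units in v-erbA cells with RA and without RA at 3 h and 366 and 402 units at 24 h, against 636 and 641 units in AML12 cells at 3 h and 817 and 897 units at 24 h. All 4 v-erbA arrays lay below all 4 AML12 arrays, and in both lines the 24 h arrays lay above the 3 h arrays. On the scale of log2(signal + 19.9), used for every change given here, Cebpa fell by 1.05 ± 0.06 (SE), to 0.483 times the AML12 level (limma adjusted p = 8.57e-07, lower in 4 of 4 matched pairs). The size of this change was larger than that of 97.5% of the 24955 probe sets tested. Its 4 pair differences were -0.97 and -0.99 at 3 h and -1.12 and -1.12 at 24 h, with RA and without.

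Hnf4a, the nuclear receptor gene, was measured by 4 probe sets, which did not give a single size of change. With v-erbA, 1427001_s_at had 1575 and 1932 units with RA and without RA at 3 h and 1218 and 1538 units at 24 h, against 2421 and 2651 units in AML12 at 3 h and 2009 and 2559 units at 24 h. The ranges of the lines did not overlap. This probe set fell by 0.63 ± 0.05 (limma adjusted p = 1.19e-05) and 1421983_s_at, with 455 to 598 units with v-erbA and 667 to 1111 units in AML12, fell by 0.65 ± 0.09 (adjusted p = 2.89e-04). Another, 1427000_at, had 1157 to 1542 units with v-erbA and 1530.1 to 1963 units in AML12, so that the lines overlapped slightly, and fell by 0.34 ± 0.05 (limma adjusted p = 2.92e-04). These 3 were lower with v-erbA in 4 of 4 pairs. The last, 1450447_at, had 219.8 to 277 units with v-erbA and 228 to 354 units in AML12, overlapped between the lines and differed by -0.14 ± 0.08 (limma adjusted p = 0.207, higher with v-erbA in 1 of 4 pairs), and passed without the AML12 RA array of 24 h (adjusted p = 0.0442). The annotation gives 1427001_s_at and 1427000_at the same source sequence, and 1421983_s_at and 1450447_at another, so the size of the difference did not follow the source.

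The forkhead genes went in both directions. Foxa1, whose product opens chromatin in liver and other endoderm, had 1951 and 1793 units with v-erbA with RA and without RA at 3 h and 2177 and 1723.5 units at 24 h, against 1709 and 1422 units in AML12 at 3 h and 1601 and 1169 units at 24 h. Every v-erbA array lay above every AML12 array, and Foxa1 rose by 0.38 ± 0.06, or 1.30-fold (limma adjusted p = 8.93e-04, higher in 4 of 4 pairs). Foxa2, its close relative, had 953 and 947 units with v-erbA at 3 h and 864 and 902 units at 24 h, against 1080.4 and 1138 units in AML12 at 3 h and 1034 and 1022 units at 24 h. The groups were apart, but the distance was small: Foxa2 fell by 0.22 ± 0.04, to 0.860 times the AML12 level (limma adjusted p = 0.00205, lower in 4 of 4 pairs). Foxa3, the forkhead gene most abundant in adult liver, had 439 and 470.5 units with v-erbA with RA and without RA at 3 h and 517 and 692 units at 24 h, against 271 and 345 units in AML12 at 3 h and 248 and 564 units at 24 h. Its groups overlapped, because the untreated AML12 array of 24 h was above 3 of the 4 v-erbA arrays. Foxa3 rose by 0.59 ± 0.13, or 1.51-fold (limma adjusted p = 0.00481, higher in 4 of 4 pairs).

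Of the C/EBP genes other than Cebpa, Cebpb was higher and Cebpd lower with v-erbA. The probe set 1418901_at of Cebpb had 1179.8 and 1215 units with v-erbA with RA and without RA at 3 h and 1232 and 1484 units at 24 h, against 929 and 1145 units in AML12 at 3 h and 1217 and 1115 units at 24 h. The lines overlapped, and the change of 0.21 ± 0.07 passed narrowly (limma adjusted p = 0.0246, higher in 4 of 4 pairs). This call was lost with each array centred on its median (0.18, adjusted p = 0.0597), without the mean-variance trend (adjusted p = 0.0600) and without either untreated 24 h array or either RA array of 3 h (adjusted p from 0.0662 to 0.0972). The second Cebpb probe set, 1427844_a_at, had 229 to 319.6 units with v-erbA and 194 to 231 units in AML12 and rose by 0.32 ± 0.07 (limma adjusted p = 0.00366).

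Cebpd had 341 and 421 units with v-erbA with RA and without RA at 3 h and 371 and 508 units at 24 h, against 340.1 and 539.8 units in AML12 at 3 h and 486 and 656 units at 24 h. The lines overlapped, and the pair of RA arrays of 3 h differed by 0.00. Over the 4 pairs Cebpd fell by 0.27 ± 0.07 with v-erbA (limma adjusted p = 0.0107, lower in 3 of 4 pairs). The untested Cebpd probe set had 41.8 to 81.4 units with v-erbA and 44.1 to 64.0 units in AML12, near or below the pooled median.

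Prox1, the homeobox gene of hepatoblasts and lymphatic endothelium, was higher with v-erbA on all 3 of its probe sets. The brightest, 1437894_at, had 623 and 514 units with v-erbA with RA and without RA at 3 h and 566 and 712 units at 24 h, against 370.5 and 306 units in AML12 at 3 h and 381 and 369 units at 24 h. The lowest v-erbA array lay well above the highest AML12 array. This probe set rose by 0.72 ± 0.09, or 1.65-fold (limma adjusted p = 1.53e-04). Likewise 1421336_at, with 246 to 319 units with v-erbA and 126 to 174 units in AML12, rose by 0.75 ± 0.09 (limma adjusted p = 1.29e-04), and 1457432_at, with 185 to 309 units and 121 to 193 units, rose by 0.58 ± 0.10 (adjusted p = 0.00101). All 3 were higher in 4 of 4 pairs, and for the last the lines overlapped.

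Onecut1, which acts upstream of other liver factors in the embryo, was measured by a pair of probe sets of which 1 passed. With v-erbA, 1421447_at had 313 and 293 units with RA and without RA at 3 h and 279.7 and 309 units at 24 h, against 244 and 236 units in AML12 at 3 h and 221 and 256 units at 24 h. Its groups did not overlap, and it rose by 0.30 ± 0.07 (limma adjusted p = 0.00458). The brighter probe set, 1450252_at, had 448 to 588 units with v-erbA and 442 to 492 units in AML12, overlapped and differed by 0.15 ± 0.07 (limma adjusted p = 0.111, higher in 4 of 4 pairs). It passed without the v-erbA RA array of 24 h (adjusted p = 0.0335).

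**Figure D1:**
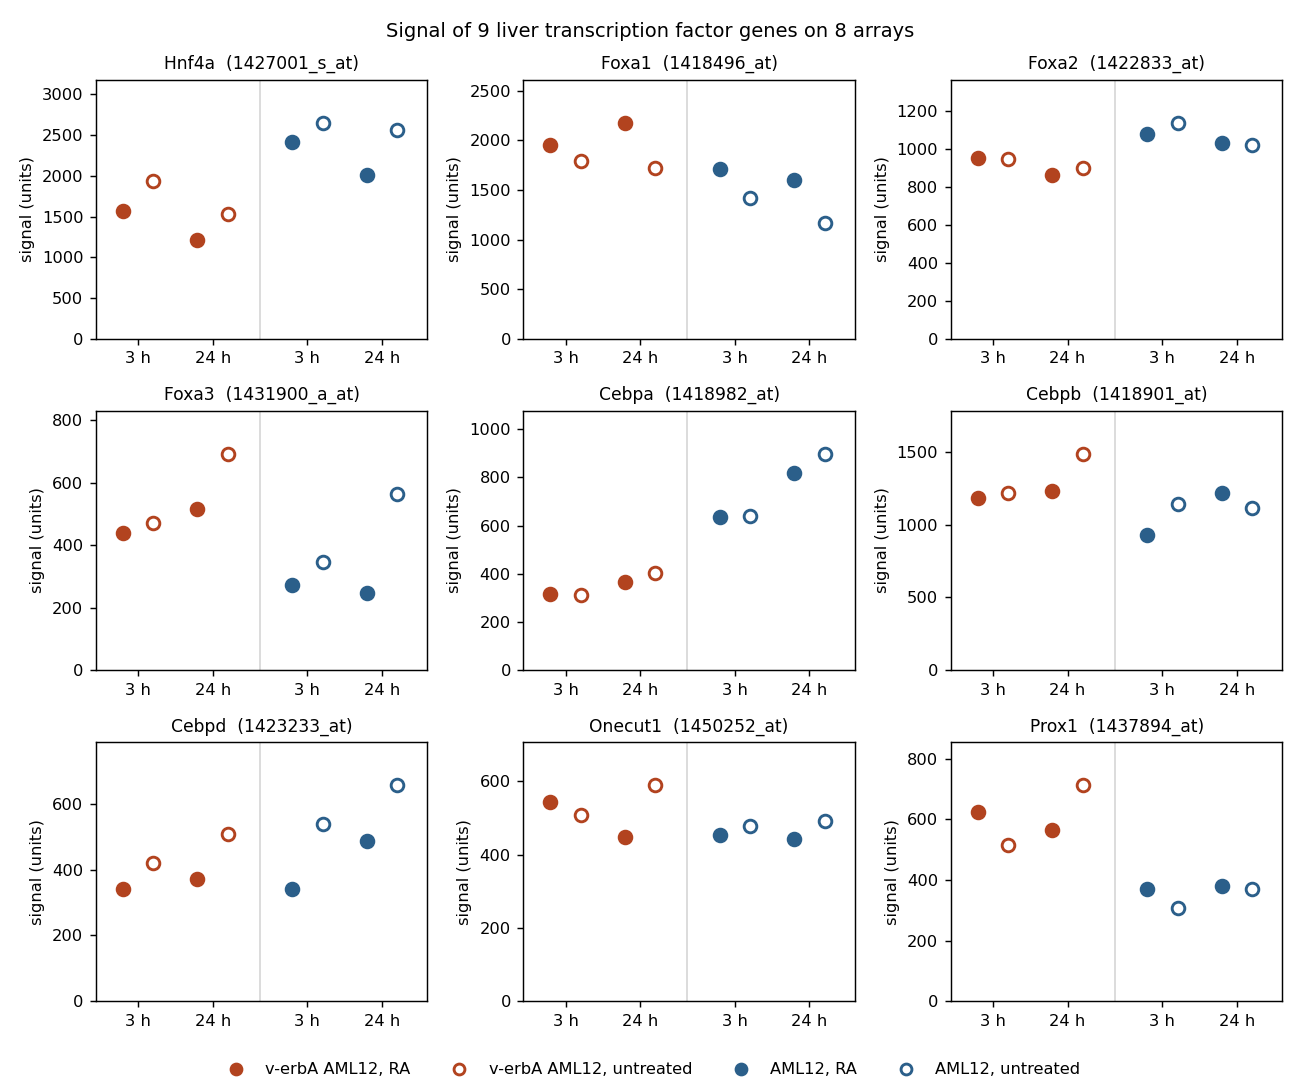
Signal in units (linear axis from 0) of the probe set with the highest mean of each gene on each of the 8 arrays; v-erbA AML12 arrays stand left of AML12 arrays, filled points are with RA and open points untreated, and each point is 1 array with no error bar because no combination was replicated. Cebpa lies at 313 to 402 units with v-erbA and at 636 to 897 units in AML12, and Prox1 at 514 to 712 and at 306 to 381 units.

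Counted together, 14 of the 16 probe sets passed for v-erbA (8 higher, 6 lower), which is 87.5% of them, against 49.7% of all 24955 probe sets tested with limma (25.4% higher, 24.3% lower). All 9 genes had at least 1 probe set past the threshold: Foxa1, Foxa3, Cebpb, Onecut1 and Prox1 were higher and Hnf4a, Foxa2, Cebpa and Cebpd lower. The median change over the 16 was 0.18, against 0.02 over all tested. The 4 and 4 signals of the lines were apart for 8 of the 16, against 35.2% of all probe sets. The v-erbA difference did not pass a test of change between 24 h and 3 h for any of the 16. The limma adjusted p ran from 0.575 to 0.999, and 0.112% of all probe sets passed. Of the 16, 0 had an unadjusted p under 0.05, against 2164 of all 24955.

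**Figure D2:**
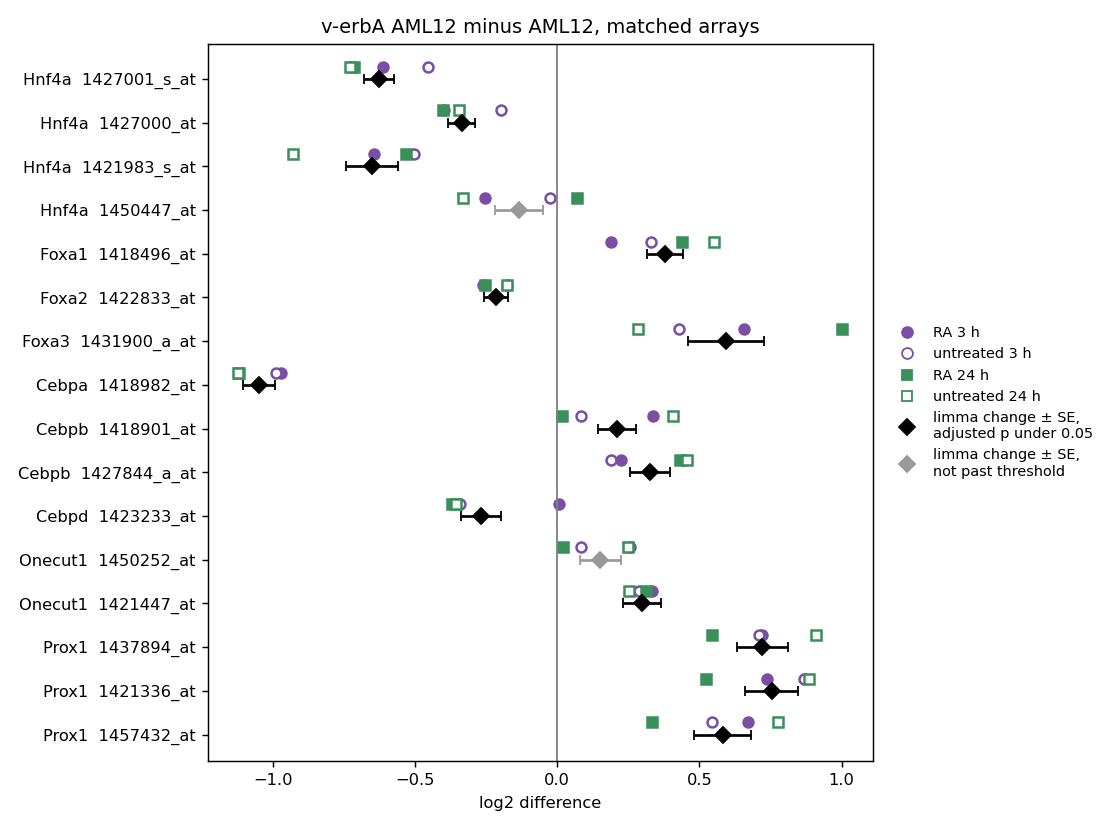
Differences in log2(signal + 19.9) between v-erbA AML12 and AML12 for the 16 probe sets tested; circles (3 h) and squares (24 h) are the 4 matched pairs, filled with RA and open untreated, and diamonds are the limma change with its SE. Cebpa (-1.05) and 3 Hnf4a probe sets lie on the lower side in every pair, and the 3 Prox1 probe sets (0.58 to 0.75) on the higher side.

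The second comparison asked how the factors responded to RA, the ligand of retinoic acid receptors. Averaged over lines and times, 2 of the 16 probe sets passed, both lower, which is 12.5%, against 1.15% of all probe sets tested (0.669% higher, 0.477% lower). With a single array left out, 0 of the 16 passed for 5 of the 8 arrays and 1 or 2 for the others, so that these calls rest on the full set. Cebpd had 341 and 371 units with RA in v-erbA cells at 3 h and 24 h, against 421 and 508 units untreated, and 340.1 and 486 units with RA in AML12 cells, against 539.8 and 656 units untreated. RA was thus lower in each pair, and Cebpd fell by 0.44 ± 0.07, to 0.735 times the untreated level (limma adjusted p = 0.0202, lower in 4 of 4 pairs). Its change stood at the 0.681 percentile of all RA changes, counted from the most negative. This call was lost without the mean-variance trend (adjusted p = 0.0920) and without any of 6 single arrays, all but the AML12 RA array of 24 h and the v-erbA RA array of 3 h (adjusted p from 0.0514 to 0.0881). Without any of those 6 the change was between -0.47 and -0.37.

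All 4 probe sets of Hnf4a were lower with RA in 4 of 4 pairs, but a single probe set passed. It was 1427001_s_at, which had 1575 and 1218 units with RA in v-erbA cells at 3 h and 24 h, against 1932 and 1538 units untreated, and 2421 and 2009 units with RA in AML12 cells, against 2651 and 2559 units untreated. It fell by 0.27 ± 0.05 (limma adjusted p = 0.0409), and the call was lost under 11 of 19 alternatives, among them each array centred on its median (adjusted p = 0.0695), quantile normalization (adjusted p = 0.0593) and the removal of 7 of the 8 single arrays. The others differed by -0.22 ± 0.05 (1427000_at, limma adjusted p = 0.0626), -0.34 ± 0.09 (1421983_s_at, adjusted p = 0.148) and -0.28 ± 0.08 (1450447_at, adjusted p = 0.201); of these, 1427000_at passed without the untreated AML12 array of 3 h (adjusted p = 0.0469), with the filter requiring all 8 arrays (adjusted p = 0.0467) and once all 2-way interactions were added (adjusted p = 0.00164), and 1421983_s_at with the last of these (adjusted p = 0.00172). The model with all 2-way interactions leaves 1 residual degree of freedom, and with it 5.93% of all probe sets passed for RA. For 1450447_at the 4 RA arrays, at 219.8 to 266 units, lay below the 4 untreated arrays, at 271 to 354 units, a separation that 1.63% of all probe sets showed.

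Foxa1 was the single member with a positive RA difference in 4 of 4 pairs. With RA it had 1951 and 2177 units in v-erbA cells at 3 h and 24 h, against 1793 and 1723.5 units untreated, and 1709 and 1601 units in AML12 cells, against 1422 and 1169 units untreated. The difference was 0.29 ± 0.06, or 1.22-fold, and did not pass (limma adjusted p = 0.0750). It passed with each array centred on its median (0.32, limma adjusted p = 0.0358), with the 4 matched pairs as a block (adjusted p = 0.0382), with all 2-way interactions (adjusted p = 5.02e-05) and without the v-erbA RA array of 3 h (adjusted p = 0.0169), and did not pass under the other 15 alternatives. With centring, 1 of the 16 was higher with RA and 1 lower, while 1.31% of all probe sets passed. Foxa3 differed by -0.49 ± 0.13 (limma adjusted p = 0.157), with a negative sign in 4 of 4 pairs and pair differences of -0.10 and -0.41 with v-erbA at 3 h and 24 h and of -0.32 and -1.12 in AML12. Its change was -0.34 without the untreated AML12 array of 24 h and -0.32 without the AML12 RA array of 24 h. Foxa3 passed under 1 of 19 alternatives, the model with all 2-way interactions (limma adjusted p = 1.15e-04), which leaves 1 residual degree of freedom. The largest of these pairs set 248 units with RA against 564 units untreated, in AML12 at 24 h.

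Cebpa, whose difference between lines was the largest, differed by -0.07 ± 0.06 with RA (limma adjusted p = 0.729), and Foxa2 by -0.03 ± 0.04 (adjusted p = 0.870). The pair of Cebpb probe sets differed by -0.12 and -0.05 and that of Onecut1 by -0.13 and -0.05. The 3 Prox1 probe sets differed by 0.06 to 0.12, with a positive sign in 3 of 4 pairs. Their exception was the same pair each time, v-erbA cells at 24 h, where RA against untreated gave -0.32, -0.28 and -0.29.

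**Figure D3:**
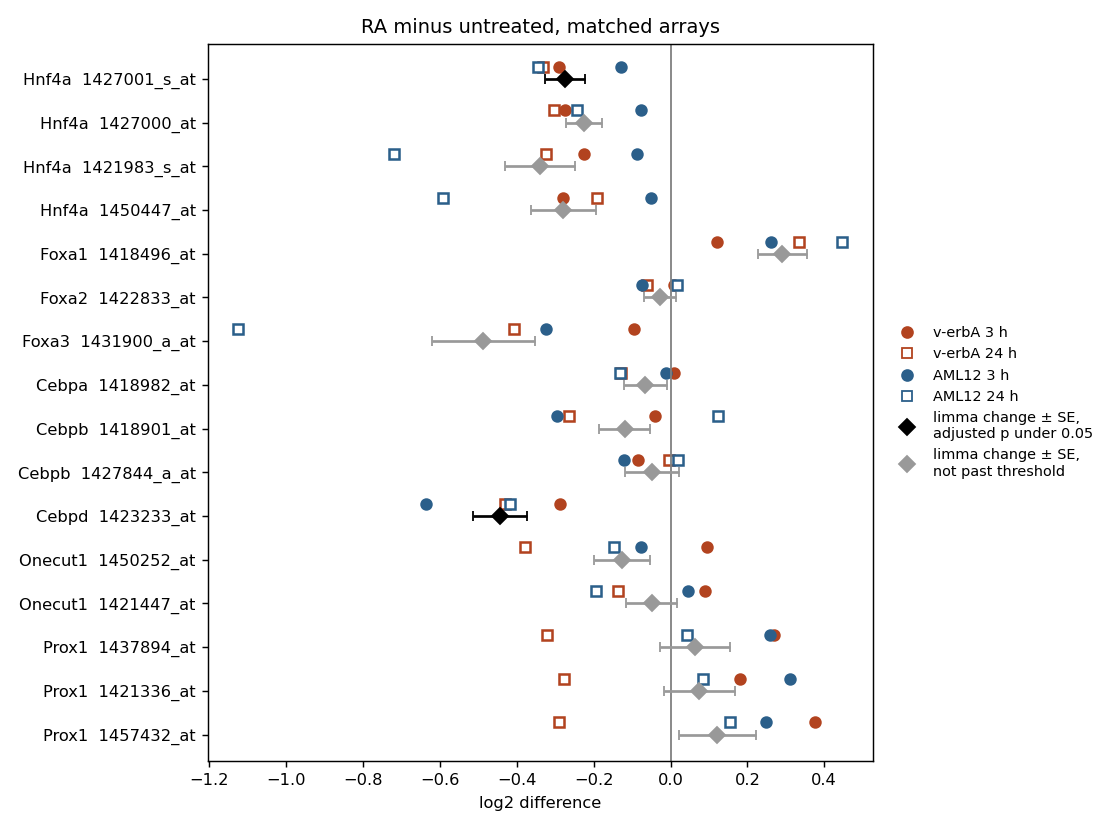
Differences in log2(signal + 19.9) between RA and untreated cells for the 16 probe sets tested; red marks are v-erbA AML12, blue marks AML12, filled circles 3 h and open squares 24 h, and diamonds are the limma change with its SE. Hnf4a, Foxa3 and Cebpd lie below 0 in every pair and Foxa1 above 0.

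Within each line the RA response of these genes could not be called. In v-erbA cells 0 of 16 passed with limma, and 0% of all probe sets did. An unadjusted p under 0.05 was found there for 4 of 16, against 860 of all 24955 probe sets. In AML12 cells 0 of 16 passed, against 0.309% of all. An unadjusted p under 0.05 was found in AML12 for 7 of 16, against 2607 of all 24955. For Cebpd the RA change was -0.36 ± 0.10 with v-erbA (limma adjusted p = 0.764) and -0.53 ± 0.10 in AML12 (adjusted p = 0.0756). For Foxa3 it was -0.25 ± 0.17 with v-erbA (limma adjusted p = 1.00) and -0.72 ± 0.17 in AML12 (adjusted p = 0.132). Foxa1 gave 0.23 ± 0.09 with v-erbA (limma adjusted p = 1.00) and 0.35 ± 0.09 in AML12 (adjusted p = 0.194). Without the untreated AML12 array of 3 h, 1 of the 16 passed in AML12.

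The difference between the lines in their RA response, which the design of the study names, was tested directly and passed for 0 of the 16 (limma adjusted p = 1.00 for each; 0 had an unadjusted p under 0.05; 0% of all probe sets passed). Of all 24955 probe sets, 471 had an unadjusted p under 0.05 in this test. For the 16, the differences in RA response, v-erbA minus AML12, ran from -0.25 to 0.47. They were 0.47 ± 0.23 for Foxa3, 0.17 ± 0.14 for Cebpd and -0.13 ± 0.13 for Foxa1, so that differences of this size could not be told from the spread of the arrays. Nor did the RA response pass for a difference between 24 h and 3 h (limma adjusted p from 0.637 to 0.990), and 0.00801% of all probe sets passed. An unadjusted p under 0.05 was found for 5 of 16, against 1799 of all 24955 probe sets. The most negative was that of Foxa3 at -0.56 ± 0.21.

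Time separated the factors less than line did. Between 24 h and 3 h, 6 of the 16 passed with limma (5 higher, 1 lower), 37.5%, against 30.4% of all probe sets (16.6% higher, 13.8% lower), so the share is near that of all probe sets. Cebpa had 366 and 402 units with v-erbA with RA and without RA at 24 h, against 315 and 313 units at 3 h, and 817 and 897 units in AML12 at 24 h, against 636 and 641 units at 3 h. It rose by 0.34 ± 0.06 at 24 h (limma adjusted p = 0.00132), and in no pair was it lower. Cebpd rose by 0.28 ± 0.07 (limma adjusted p = 0.0131), the Cebpb probe set 1427844_a_at by 0.28 ± 0.07 (adjusted p = 0.0133) and the Prox1 probe set 1457432_at by 0.37 ± 0.10 (adjusted p = 0.0188), each higher in 4 of 4 pairs. The Cebpb call was lost without any of the 4 v-erbA arrays (limma adjusted p up to 0.0568), and the Prox1 call without either untreated array of 3 h or the untreated v-erbA array of 24 h (up to 0.0717). The other Cebpb probe set differed by 0.17 (limma adjusted p = 0.0788) and the other Prox1 probe sets by 0.15 and 0.17. Foxa3 differed by 0.33 ± 0.13 (limma adjusted p = 0.0909, higher in 3 of 4 pairs), a value that ranged from 0.18 without the untreated AML12 array of 24 h (adjusted p = 0.251) to 0.50 without the AML12 RA array of 24 h (adjusted p = 0.00226). It also passed with all 2-way interactions (limma adjusted p = 8.75e-04), a model with 1 residual degree of freedom.

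Probe sets of Hnf4a disagreed on time. At 24 h 1427001_s_at had 1218 to 2559 units and at 3 h 1575 to 2651 units, and it fell by 0.25 ± 0.05 (limma adjusted p = 0.00515, lower in 4 of 4 pairs). In contrast 1427000_at, which has the same source sequence, had 1247 to 1963 units at 24 h and 1157 to 1614 units at 3 h and rose by 0.16 ± 0.05 (limma adjusted p = 0.0299, higher in 4 of 4 pairs). The second call was lost under 7 alternatives, 5 of them with a single array left out. The 2 remaining probe sets differed by -0.03 and 0.07. No direction over time is therefore given for Hnf4a. None of the 16 had 24 h and 3 h signals apart, against 17.9% of all probe sets.

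**Figure D4:**
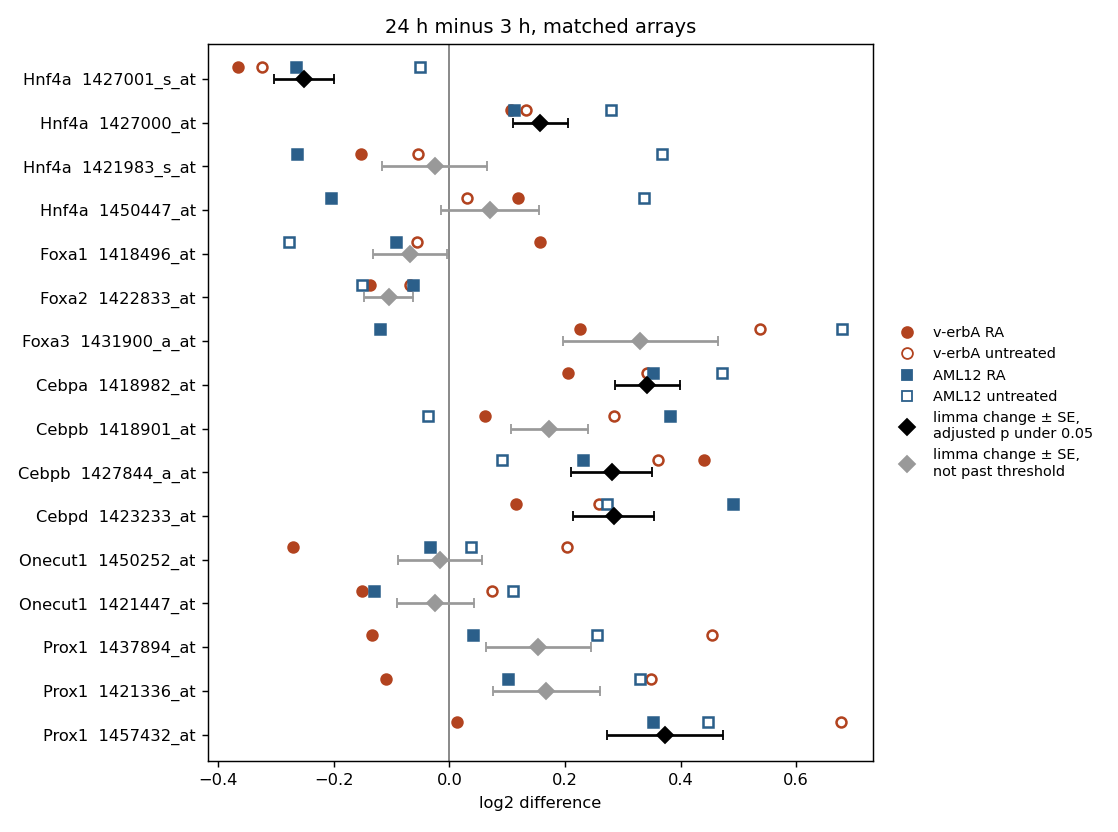
Differences in log2(signal + 19.9) between 24 h and 3 h for the 16 probe sets tested; red circles are v-erbA AML12 and blue squares AML12, filled with RA and open untreated, and diamonds are the limma change with its SE. Cebpa and Cebpd lie above 0 in every pair, and the Hnf4a probe sets 1427001_s_at (-0.25) and 1427000_at (0.16) lie on opposite sides.

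Genes known as targets of HNF4A, C/EBP and FOXA factors were counted in lists that come from general knowledge of the liver, overlap in part, and use the brightest probe set of each gene. Taken the same way, 53.4% of 12015 genes passed for v-erbA (26.5% higher, 26.9% lower). Of 18 HNF4A target genes tested, 10 fell, 0 rose and 8 did not pass, with a median change of -0.53, against 0.01 over all genes. The share that passed, 55.6%, was near that of all genes. Apoa1, which encodes a lipoprotein component, averaged 403 ± 239 units with v-erbA and 3466 ± 2444 units in AML12 (SD, n = 4 arrays each) and fell by 2.98 ± 0.30 (limma adjusted p = 3.97e-05), and Otc, an enzyme of the urea cycle, was at least 1.89-fold lower with v-erbA, where it lay below the pooled median on all 4 arrays (limma adjusted p = 5.53e-04). Of 17 C/EBP target genes, 9 fell, 3 rose and 5 did not pass (70.6% passed, against 53.4% of all genes), with a median of -0.30. Itih4, an acute phase protein, lay below the median on all 4 v-erbA arrays and was at least 3.85-fold lower there (limma adjusted p = 2.21e-06), and the fibrinogen gene Fgg fell by 1.82 ± 0.21 (adjusted p = 8.11e-05). Fgg averaged 59.9 ± 26.3 units with v-erbA (SD, n = 4 arrays), near the pooled median, so the size of its change is uncertain. The pseudokinase gene Trib1, whose product promotes loss of C/EBP-alpha protein, lay below the median on all 4 AML12 arrays and was at least 1.92-fold higher with v-erbA (limma adjusted p = 2.37e-05), and Pparg rose by 1.05 ± 0.09 (adjusted p = 1.68e-05). Pparg averaged 80.2 ± 14.9 units in AML12 (SD, n = 4 arrays), also near the pooled median.

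Of 14 FOXA target genes, 6 fell, 5 rose and 3 did not pass (78.6% passed, against 53.4% of all genes), with a median of -0.12. The drug-metabolizing enzyme Cyp3a11 fell by 1.75 ± 0.26 (limma adjusted p = 4.15e-04) and Apob, the protein of very low-density lipoprotein, by 1.16 ± 0.33 (adjusted p = 0.0143), while Vtn, which encodes vitronectin, rose by 0.88 ± 0.19 (adjusted p = 0.00345) and the fetal gene Afp by 0.75 ± 0.09 (adjusted p = 1.51e-04). With RA, 1.17% of the 12015 genes passed (0.816% higher, 0.358% lower), so lists of this size would hold few calls at that share. Of the 18 HNF4A targets and the 17 C/EBP targets 0 passed with RA, with medians of -0.14 and -0.07, against 0.0025 over all genes. Of the 14 FOXA targets 1 passed with RA (7.14%), the transporter gene Abcc2, which rose by 0.38 (limma adjusted p = 0.0250).

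Of 26 other regulators of hepatocyte genes tested, 13 fell with v-erbA, 5 rose and 8 did not pass (69.2% passed, against 53.4% of all genes), with a median of -0.09. Nr0b2, a receptor without a DNA-binding domain that represses HNF4A targets, fell by 2.07 ± 0.16 (limma adjusted p = 7.98e-06), and Rxra, the partner of RA receptors, fell by 0.91 ± 0.07 (adjusted p = 5.54e-06). Esrra rose by 0.46 ± 0.09 (limma adjusted p = 0.00176) and Klf6 by 0.44 ± 0.06 (adjusted p = 3.63e-04). With RA, 1 of the 26 rose, Nr0b2 by 2.10 (limma adjusted p = 9.88e-04), and 2 fell, Ppara by 0.93 (adjusted p = 0.00613) and Onecut2, the close relative of Onecut1, by 0.27 (adjusted p = 0.0202). The share of the 26 that passed with RA was 11.5%, against 1.17% of all genes.

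Among relatives of the members by family, 7 leucine zipper factors related to C/EBP gave 4 lower, 2 higher and 1 not past the threshold with v-erbA (85.7% passed, against 53.4% of all genes). Tef fell by 0.80 ± 0.08 and the stress factor Ddit3, a dimer partner of C/EBP proteins, by 0.78 ± 0.05 (limma adjusted p = 4.73e-05 and 3.60e-06), while Atf3 rose by 1.47 ± 0.14 and Nfil3 by 0.27 ± 0.08 (adjusted p = 2.59e-05 and 0.0243). In AML12 Atf3 averaged 63.8 ± 16.2 and Nfil3 90.6 ± 15.1 units (SD, n = 4 arrays each), near the pooled median. Of 14 other forkhead factors 4 fell, 4 rose and 6 did not pass, with a median of 0.00; the share that passed, 57.1%, was near that of all genes. Foxo3 fell by 0.81 ± 0.06 (limma adjusted p = 4.51e-06) and Foxp1 by 0.44 ± 0.05 (adjusted p = 5.77e-05), and Foxn3 rose by 0.49 ± 0.08 (adjusted p = 6.34e-04) and Foxn2 by 0.33 ± 0.05 (adjusted p = 4.07e-04). With RA 0 of the 7 and 0 of the 14 passed, against 1.17% of all genes.

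The genes most alike in pattern to each member were found by Pearson's correlation over the 8 arrays among 2268 genes that spanned at least 1 log2 unit. The arrays share the design of line, RA and time, so such a correlation describes a shared order of 8 values, and no test was made. Cebpa was most like Gstm2, a glutathione transferase gene, Cd82 and Zfp385b (r = 0.997 for each). Hnf4a was most like Gskip (0.985), Tlcd1 (0.974) and the claudin gene Cldn2 (0.974), and Foxa2 was most like Dock5 (0.992), Ptk2b (0.991) and Eif4ebp2 (0.985). Foxa1 was most like Filip1l (0.983), Stk17b (0.975) and the retinol dehydrogenase gene Rdh10 (0.972). Prox1 was most like Paqr9 (0.985), the chemokine gene Cxcl9 (0.966) and Plcb1 (0.962). For Foxa3 they were the antitrypsin gene Serpina1c (0.960), H2ac19 (0.952) and Enpp5 (0.935), and for Cebpd Raph1 (0.947), Plpp3 (0.938) and Ttc38 (0.920). Cebpb and Onecut1 had the least similar partners: Parp8 (0.936), Pak3 (0.860) and Cftr (0.858) for Cebpb, and Sorl1 (0.878), Cpn1 (0.844) and Ppp1r3c (0.844) for Onecut1.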

How the data were processed

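Biotin-labelled total RNA of 8 samples was hybridised to Affymetrix arrays, according to the protocols among the labels. In the deposited table each value is a signal intensity of a probe set on a linear scale; how the authors summarised probes and scaled arrays is not given in the sources used here, and the deposited scaling was kept. Of 45037 probe sets listed, 1 had no value on 4 arrays and was left out. Gene symbols were taken from the platform annotation (34944 with 1 gene, 932 with several, 9160 with none), with locations from RefSeq (GRCm38.p6). The analysis computed log2(signal + 19.9), the offset being the 20th percentile of all values, kept 24955 probe sets with at least 2 of 8 arrays above 73.5 units, and fitted limma 3.58.1 (R 4.3.3, mean-variance trend, Benjamini-Hochberg over all 24955, threshold 0.05). Effects of line, RA and time were estimated additively with 4 residual degrees of freedom, and differences of effects from models with 1 interaction and 3. The alternative with all 2-way interactions leaves 1 residual degree of freedom. A fold against a line whose 4 arrays all lay below the pooled median is a bound against that median. No combination was replicated, so p-values measure departures from additivity among these arrays, which may be technical, and precision is limited by having 8 arrays. The members, gene lists and tests were chosen with earlier results of these data known. All probe sets of the 9 genes are accounted for; from each list the 2 highest and 2 lowest v-erbA changes past the threshold are named, RA calls of a list were added after their values were seen, and the 3 most correlated genes per member. Figures used matplotlib 3.10.9 in Python 3.11.15.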

Additional observations from a re-analysis of the deposited data

Results flagged for a closer look

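The Onecut1 probe set 1421447_at had RA differences of opposite sign at the 2 times, in both lines. At 24 h RA minus untreated was -0.14 with v-erbA and -0.20 in AML12, and at 3 h it was 0.09 with v-erbA and 0.05 in AML12. The difference between the times was -0.23 ± 0.12 (SE) and did not pass (limma adjusted p = 0.730). The brighter Onecut1 probe set 1450252_at gave -0.38 and -0.15 at 24 h and 0.10 and -0.08 at 3 h, in the same order of lines. Each value rests on 1 pair of arrays.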

How the results depend on the processing

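Counts of the 16 probe sets past the threshold were compared under 19 alternatives, 8 of which left out a single array. For v-erbA the 14 became 8 of 9 with 1 probe set per gene, which tests fewer probe sets, and 13 to 15 with an array left out. For RA the 2 became 1 with quantile normalization or with dim signals set to the pooled median, and 0 without the mean-variance trend. They became 6 once all pairwise interactions (2-way) were added, and 0 to 2 with an array left out. Of all probe sets, 1.15% passed for RA in the main fit, 1.11% with quantile normalization, 0.1% without the trend and 5.93% with all 2-way interactions. The cause was not tested. For time the 6 became 3 of 9 with 1 probe set per gene, near the 34.7% of all genes that passed then. With an array left out the 6 became 3 to 6, the 3 without the untreated v-erbA array of 24 h. For RA in AML12 the 0 became 0 to 1 with an array left out, and it stayed at 0 in v-erbA cells and for the 3 differences of effects under every alternative run. Over the 16 probe sets, the v-erbA change kept its side of the threshold in 289 of 297 comparisons with alternatives, lost the call in 6 (all of Cebpb 1418901_at) and gained it in 2; for RA these were 270, 18 and 9, and for time 277, 14 and 6. The sign changed in 2 comparisons for RA and 10 for time, in none of which the probe set passed, and in 0 for v-erbA. Over all probe sets, centring each array on its median gave 5431 higher and 6712 lower for v-erbA in place of 6348 and 6055, 3280 and 4229 for time in place of 4140 and 3440, and 233 and 94 for RA in place of 167 and 119. The 4 matched pairs of each factor were also fitted as a block, a fit with 3 residual degrees of freedom chosen after seeing the data. With it 14 passed for v-erbA, 3 for RA (1 higher, Foxa1, and 2 lower) and 6 for time. Of all probe sets, 50.3%, 1.33% and 27.0% passed in that fit, in the same order. No pairing by replicate number exists, since each combination has a single array. Without detection calls, signals near 73.5 units cannot be told from background.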
